A study of Homo sapiens with 16 samples.

Results

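AP-1 is a family of dimeric transcription factors built from Fos, Jun and ATF subunits, and the immediate early genes are those that a cell switches on within minutes of a growth factor, stress or calcium signal, without new protein synthesis. The set described here held the Fos genes FOS, FOSB and FOSL2, the Jun genes JUN, JUNB and JUND, and ATF3, EGR1, DUSP1 and MYC. FOS was selected on its measured change, since no other called gene averaging 100 or more normalized counts, with groups that did not overlap, showed a larger fall, and the other genes were chosen by family and known function, with earlier results of the same comparison in view. FOS was taken by its transcript identifier and each other gene by its position on hg19, the genome build in the submitters' processing notes. Of the 10 genes, 9 were found among the 19333 genes of the table, and MYC was not analysed here.

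Expression was measured by total RNA-seq after ribosomal RNA depletion in HEK293 cells, a human embryonic kidney line. Cells were transfected in repeated rounds with a negative control RNA (scramble, 2 libraries) or with siRNA against Top1 (Top1 KD, 2 libraries) before total RNA was taken. Top1 is the topoisomerase that relaxes supercoils ahead of and behind the transcribing polymerase. The libraries held 14681774 to 18366226 reads on genes, and the values are read counts that the authors divided by a size factor per library (normalized counts). The series' text says that its samples came from different passages, and p-values measure the spread between these libraries. The siRNA was given to the whole culture, so that fewer expressing cells and less RNA per cell cannot be told apart in any result below.

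TOP1, the targeted gene, gave only a weak check of the labels. Scramble cells had 1278 and 1246 normalized counts of it and Top1 KD cells 1074 and 932.5, so that both Top1 KD libraries lay below both scramble libraries, as they did for 29.0% of tested genes. The mean in Top1 KD cells was 79.5% of that in scramble cells (log2 fold change -0.33, SE 0.13, limma adjusted p = 0.109), which was not called. The paper reports that it checked the knockdown by Western blot, and also in RNA by RNA-seq. These libraries do not measure Top1 protein, and the reason for the small fall in RNA was not tested. KRT18 (401.2 to 531.4 normalized counts) and VIM (789.0 to 1055), which kidney epithelial lines express, were present in every library. KRT8, the keratin partner of KRT18, fell (4071 and 3741 in scramble, 2016 and 2575 in Top1 KD, log2 fold change -0.78, limma adjusted p = 0.000751), although its row shares sequence positions with that of KRT18 on the other strand. PAX2, a factor of the developing kidney, stood at 50.2 to 82.2. ALB, a liver gene, was at 0 in every library, and the leukocyte gene PTPRC did not exceed 7.04. COL1A1, a fibroblast collagen, was uneven within both groups, with 45.9 and 0.88 in scramble and 7.58 and 51.4 in Top1 KD libraries. The neuronal marker NEFL, which HEK293 cells are known to express, was not analysed here.

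In the cell, Fos proteins bind DNA as partners of Jun proteins, Jun proteins can also pair with each other, and ATF3 joins either Jun or ATF partners. Signals reach these genes through MAP kinases, which activate the serum response factor and its ternary complex partners at CArG boxes and CREB or ATF proteins at cAMP response elements (CRE). DUSP1 is a phosphatase that switches the MAP kinases off again. The FOS and EGR1 proteins are short-lived, and their transcripts are scarce in cells that have not been recently stimulated.

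The sequences before the transcription starts of 5 of these genes are shown because they hold the elements that this description names, in genes that fell (FOS, JUNB, DUSP1), in the gene with a library at 0 (EGR1) and in a gene without a fall (JUND). The sequences are from RefSeq (GRCh38.p14, not the build of the expression table) and give, 5′ to 3′ on the strand of the gene, the 250 bases before the start. Capitals mark the motifs that were searched on both strands, namely the AP-1 site (TGACTCA or TGAGTCA), the CRE (TGACGTCA), the CRE core (TGACG), the CArG box, the GC box (GGGCGG) and the TATA box (TATAAA). Each CRE contains a core on either strand, and in JUN, not printed here, a GC box begins on the last base of a core.
FOS, chr14:75278578-75278827, plus strand: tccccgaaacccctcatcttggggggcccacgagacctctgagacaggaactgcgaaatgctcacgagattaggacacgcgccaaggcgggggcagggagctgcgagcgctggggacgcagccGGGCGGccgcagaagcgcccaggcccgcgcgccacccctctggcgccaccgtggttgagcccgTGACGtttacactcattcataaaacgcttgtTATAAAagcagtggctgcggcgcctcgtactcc
JUNB, chr19:12791236-12791485, plus strand: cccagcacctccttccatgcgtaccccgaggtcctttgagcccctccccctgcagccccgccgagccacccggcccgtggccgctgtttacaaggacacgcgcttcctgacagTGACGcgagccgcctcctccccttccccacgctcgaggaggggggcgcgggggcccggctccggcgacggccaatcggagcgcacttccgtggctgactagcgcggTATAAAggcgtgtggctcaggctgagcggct
EGR1, chr5:138465229-138465478, plus strand: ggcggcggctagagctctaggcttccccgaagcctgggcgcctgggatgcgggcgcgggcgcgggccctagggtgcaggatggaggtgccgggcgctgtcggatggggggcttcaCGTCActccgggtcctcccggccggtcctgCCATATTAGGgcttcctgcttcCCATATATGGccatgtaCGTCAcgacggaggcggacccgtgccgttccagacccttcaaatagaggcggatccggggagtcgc
DUSP1, chr5:172771196-172771445, minus strand: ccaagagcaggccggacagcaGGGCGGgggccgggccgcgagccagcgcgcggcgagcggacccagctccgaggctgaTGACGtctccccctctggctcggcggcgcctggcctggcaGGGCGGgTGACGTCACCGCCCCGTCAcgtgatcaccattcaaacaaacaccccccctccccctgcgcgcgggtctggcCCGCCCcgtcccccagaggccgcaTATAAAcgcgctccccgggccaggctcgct
JUND, chr19:18281623-18281872, minus strand: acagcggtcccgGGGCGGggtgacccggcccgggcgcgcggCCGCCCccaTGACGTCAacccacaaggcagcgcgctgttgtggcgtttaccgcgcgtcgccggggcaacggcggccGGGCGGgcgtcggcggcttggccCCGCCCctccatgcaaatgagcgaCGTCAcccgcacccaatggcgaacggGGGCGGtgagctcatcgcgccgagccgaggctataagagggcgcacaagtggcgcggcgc

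In the FOS window a CRE core began 64 bases and a TATA box 33 bases before the start. The EGR1 window held 2 CArG boxes, beginning 105 and 83 bases before the start, and a CArG box was found in 1.29% of the 35116 promoter windows of the table, which extend to 50 bases after the start. EGR1 was the 1 member with such a match within its window. Sequence further from the starts was not searched, so a CArG box lying there in FOS or another member would have been missed. DUSP1 and JUND each held a whole CRE, which 1.85% of all windows held. At least 1 CRE core stood in the windows of 8 of the 9 members, against 24.6% of all windows, and in neither listed window of ATF3. Only the listed starts were searched, so a core near another start of ATF3 would have been missed. The windows of those 8 members were 62.0% to 77.0% G and C, those of ATF3 48.0% and 46.3%. The median over all windows was 58.7%, and the motif shares were not adjusted for this. A TATA box stood in 5 members (FOS, FOSB, JUNB, DUSP1 and the second listed start of ATF3), against 11.5% of windows, and a GC box in 7 of 9, against 45.0%. The AP-1 site itself was matched in 1 member, FOSL2, beginning at base 5 after the start, and in 4.95% of windows. These matches are descriptions of the letters in the windows and say nothing of binding in these cells. The TATA box matches of FOS, FOSB, JUNB and DUSP1 lay 30 to 33 bases before the start. FOSB was not called below, and the other 3 were called lower. ATF3, also called lower, had 0 matches in the window of its first listed start. Its match lay 230 bases before the second.

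**Figure D1:**
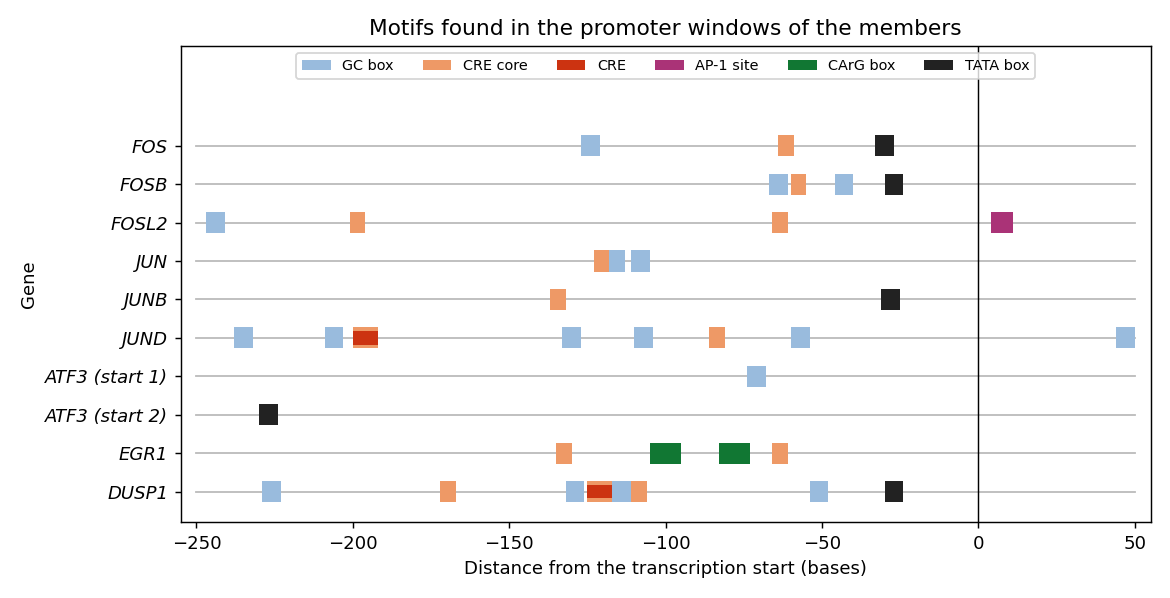
Motif matches in the RefSeq promoter windows of the members, plotted by distance from the transcription start in bases (start at 0, 250 bases before to 50 after), one line per listed start and one colour per motif. CRE cores lie in the windows of 8 of 9 members, and the 2 CArG boxes lie in EGR1.

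The Fos genes encode the subunits that need a Jun partner, and FOS (ENST00000303562, chromosome 14, 75745477 to 75748933, plus strand) is the founding member. Scramble cells had 409.7 and 182.1 normalized counts of FOS and Top1 KD cells 19.5 and 9.69. These values correspond to 384, 207, 18 and 10 reads, whose exact Poisson 95% intervals (346.5 to 424.4, 179.8 to 237.2, 10.7 to 28.4 and 4.795 to 18.4) cover counting error only. The groups did not overlap, and the scramble libraries themselves differed 2.25-fold, a wider gap than in 99.8% of the 10308 genes that averaged 100 or more. FOS RNA in Top1 KD cells was 4.93% of the scramble mean, 14.6 ± 6.92 against 296 ± 161 normalized counts (SD, n = 2 libraries each). The log2 fold change was -4.21 (SE 0.53), on log2 of the normalized count plus 1. This value chose the gene and is given as a description, without a test. It ran from -3.63 without scramble replicate 1 to -4.795 without scramble replicate 2. The next largest log2 fold change under the same choice was -3.83.

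For FOSB, a close relative of FOS that is induced by the same signals, the groups overlapped. The gene (ENST00000353609, chromosome 19, 45971253 to 45978436, plus strand) had 53.4 and 13.2 normalized counts in scramble and 15.2 and 17.4 in Top1 KD libraries. Scramble replicate 1 was high, and the other 3 libraries were alike. The log2 fold change was -0.69 (SE 0.86, limma adjusted p = 0.645), and it became 0.28 without scramble replicate 1. FOSL2 (ENST00000264716, chromosome 2, 28615725 to 28640179, plus strand), a Fos protein that persists longer after a signal, had 72.6 and 100.3 normalized counts in scramble and 73.6 and 111.5 in Top1 KD libraries. In FOSL2 the groups overlapped almost fully. Its log2 fold change was 0.09 (SE 0.42, 95% interval -0.80 to 0.97, limma adjusted p = 0.918), an interval that includes a change of 1.5-fold in either direction.

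**Figure D2:**
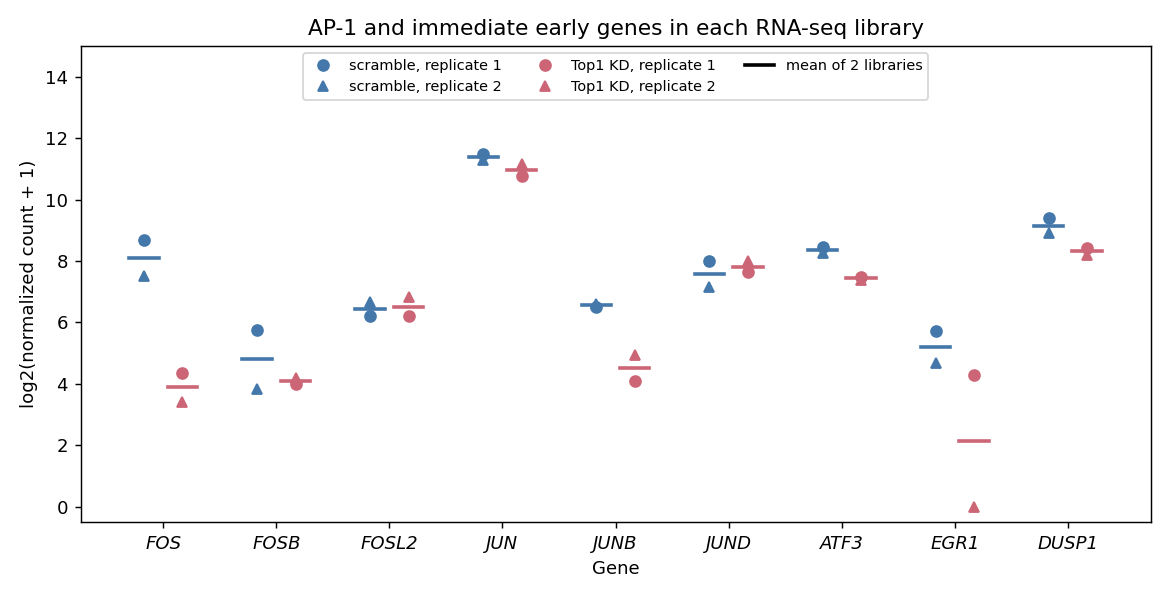
Level of each member in each library, as log2 of the normalized count plus 1 (vertical axis) by gene (horizontal axis), with scramble in blue, Top1 KD in red, circles for replicate 1, triangles for replicate 2 and bars for the mean of 2 libraries. FOS, JUN, JUNB, ATF3, EGR1 and DUSP1 show no overlap between the groups, with Top1 KD lower, as 29% of tested genes do. FOSB, FOSL2 and JUND overlap.

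The Jun genes are intronless, so their levels can be compared per kilobase of the table's span. JUN (ENST00000371222, chromosome 1, 59246465 to 59249785, minus strand) was the highest of the 3, at 812 ± 78.9 normalized counts per kb in scramble cells (SD, n = 2), followed by JUND at 106 ± 42.1 and JUNB at 51.4 ± 2.03. JUN stood apart from both, whereas the JUNB values (49.97 and 52.8) lay below both JUND values (135.8 and 76.2), and their distance to the lower of these was smaller than the gap between the JUND libraries. JUN made up 82.4% and 85.4% of the summed level per kb of the 3 genes in scramble cells and 81.9% and 81.8% in Top1 KD cells. The share of JUNB was 4.74% and 5.97% in scramble and 1.40% and 1.98% in Top1 KD libraries.

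JUN had 2881 and 2510 normalized counts in scramble and 1735 and 2265 in Top1 KD libraries. The Top1 KD libraries were both lower, with replicate 2 closer to scramble. JUN had a log2 fold change of -0.44 (SE 0.13, limma adjusted p = 0.0338), a 1.36-fold difference that passed the test but not the 1.5-fold limit, so that JUN was not called. Leaving out Top1 KD replicate 2 gave -0.63 and a call (limma adjusted p = 0.0143). The test was not passed without scramble replicate 1, scramble replicate 2 or Top1 KD replicate 1, where the limma adjusted p ran from 0.118 to 0.352.

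JUNB (ENST00000302754, chromosome 19, 12902310 to 12904124, plus strand), a Jun protein that often restrains JUN in growing cells, fell. Its normalized counts were 90.7 and 95.9 in scramble cells and 16.2 and 30.1 in Top1 KD cells. The scramble libraries agreed closely (1.06-fold apart), and both Top1 KD libraries were far below them. JUNB fell by 2.03 on the log2 scale (SE 0.56, limma adjusted p = 0.0240), or 4.08-fold. Without Top1 KD replicate 1 the log2 fold change was -1.60 (limma adjusted p = 0.0889). It was -2.07 without scramble replicate 1 and -1.99 without scramble replicate 2, and was not called there either (limma adjusted p = 0.210 and 0.214).

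JUND (ENST00000252818, chromosome 19, 18390563 to 18392432, minus strand), the Jun gene that quiescent cells express steadily, had 253.9 and 142.5 normalized counts in scramble and 199.1 and 253.0 in Top1 KD libraries. The scramble libraries spanned the Top1 KD values. The log2 fold change was 0.24 (SE 0.31, 95% interval -0.41 to 0.89, limma adjusted p = 0.657), and it was -0.18 without scramble replicate 2.

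ATF3 and DUSP1 both fell by under 2-fold. ATF3 (ENST00000366987, chromosome 1, 212738697 to 212794114, plus strand) encodes a stress-induced ATF protein that dimerizes with Jun proteins. It had 352.1 and 306.2 normalized counts in scramble and 178.6 and 166.7 in Top1 KD libraries, with little spread in either group. ATF3 had a log2 fold change of -0.92 (SE 0.25, limma adjusted p = 0.0207), which left 52.4% of the scramble mean. DUSP1 (ENST00000239223, chromosome 5, 172195093 to 172198198, minus strand), the MAP kinase phosphatase, had 674.3 and 477.7 normalized counts in scramble and 344.2 and 291.8 in Top1 KD libraries. Both Top1 KD libraries lay below both scramble libraries, which differed 1.41-fold. DUSP1 fell by 0.84 on the log2 scale (SE 0.21, limma adjusted p = 0.0151). For ATF3 the limma adjusted p was 0.253 without scramble replicate 1, 0.133 without scramble replicate 2, 0.0669 without Top1 KD replicate 1 and 0.0570 without Top1 KD replicate 2. The DUSP1 call was lost without scramble replicate 1 (limma adjusted p = 0.313), Top1 KD replicate 1 (0.0565) or Top1 KD replicate 2 (0.0787).

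EGR1 (ENST00000239938, chromosome 5, 137801179 to 137805004, plus strand), a zinc finger factor induced together with FOS, was scarce. It had 52.3 and 24.6 normalized counts in scramble and 18.4 and 0 in Top1 KD libraries, or 49, 28, 17 and 0 reads. Both Top1 KD libraries were lower, and they were unlike each other. The 0 in Top1 KD replicate 2 allows up to 3 reads, or 2.91 normalized counts, by the one-sided limit for a count of 0, and up to 3.69 reads by the two-sided exact Poisson interval used for FOS. The log2 fold change of -3.07 (SE 1.31, limma adjusted p = 0.129) was not called, and it followed the pseudocount, at -4.73 with a pseudocount of 0.1 and -1.93 with a pseudocount of 5. Leaving out Top1 KD replicate 2 gave -0.93, and leaving out Top1 KD replicate 1 gave -5.21 with a call (limma adjusted p = 0.0289).

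Across the members, 4 of 9 were called lower (FOS, JUNB, ATF3 and DUSP1), where 4.26% of the 13086 tested genes were, and 0 of 9 were called higher, where 3.88% of tested genes were. With FOS set aside, 3 of the other 8 were called lower. A gene was called at a limma adjusted p under 0.05 (Benjamini-Hochberg over all tested genes) and a change of at least 1.5-fold, and all 9 members passed the filter on low values. In 6 of 9 members both Top1 KD libraries lay below both scramble libraries, which was so for 29.0% of tested genes, and in 0 of 9 both lay above, which was so for 28.8%. The median log2 fold change of the 9 was -0.84, against 0.0025 over all tested genes. With FOS set aside, both Top1 KD libraries lay below both scramble libraries in 5 of the other 8. The median log2 fold change of those 8 was -0.763. Because the contrast chose FOS and was known when the others were chosen, these counts describe the members. With 1 library left out, the log2 fold change ran from -2.45 to -1.60 for JUNB and from -1.025 to -0.82 for ATF3. For DUSP1 it ran from -1.09 to -0.59. Fewer members were called lower in each of those fits. JUNB, ATF3 and DUSP1 each lost the call in most of them, and JUN and EGR1 gained one in some.

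**Figure D3:**
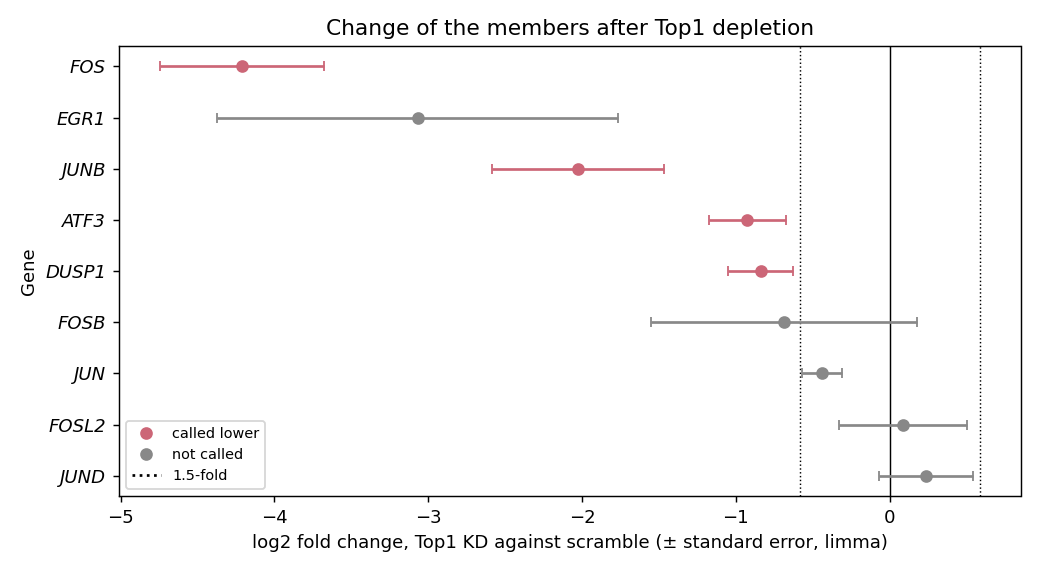
Log2 fold change of each member between Top1 KD and scramble (horizontal axis, point with standard error from limma), ordered by size, with genes called lower in red and the 1.5-fold limits dotted. The values run from -4.21 for FOS to 0.24 for JUND, and the standard error of EGR1 (1.31) is the widest.

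The members also varied between replicates. Scramble replicate 1 was at least 1.5-fold above scramble replicate 2 (normalized count plus 1) in 4 of 9 members (FOS, FOSB, JUND and EGR1), and replicate 2 was above replicate 1 by as much in 0 of 9. Over all tested genes the shares were 6.91% and 6.87%. Among the Top1 KD libraries, replicate 1 was at least 1.5-fold higher in 2 members (FOS and EGR1) and replicate 2 in 2 (FOSL2 and JUNB), against 8.63% and 9.88% of tested genes. The high scramble values of FOS, FOSB, JUND and EGR1 thus fell in the same library. Without that library the log2 fold change was -3.63 for FOS, 0.28 for FOSB, 0.65 for JUND and -2.54 for EGR1. Why the library was higher for these genes was not tested.

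Across the 4 libraries, the genes whose log2 values correlated best with those of FOS were ENST00000568305 (chromosome 20, 32782375 to 32856982, plus strand, r = 1 after rounding) and ENST00000221419 (chromosome 19, 39327028 to 39340973, minus strand, r = 0.9999). ENST00000568305 had 235.8 and 173.3 normalized counts in scramble and 74.7 and 58.2 in Top1 KD libraries, and its log2 fold change was -1.60. For ENST00000221419 it was -0.25. With 4 points such likeness is common, and 7.09% of the 10307 genes compared had an r over 0.95. The points share their libraries and the gap between the groups.

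Other genes of the pathway were taken from 5 lists and matched by position in the same way. Of 85 listed genes, 77 were matched and 64 passed the filter, and 8 of the 64 were called lower (12.5%, against 4.26% of all tested genes) and 4 higher (6.25%, against 3.88%). Their median log2 fold change was -0.08. The number called lower was 2 without scramble replicate 1, 3 without scramble replicate 2, 2 without Top1 KD replicate 1 and 10 without Top1 KD replicate 2. The number called higher was 1 in each of the first 3 of these fits and 4 in the last.

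Among AP-1 partners and relatives, 3 of 10 tested genes fell and 1 rose, where 4.26% and 3.88% of all tested genes did. MAFK, a small Maf protein that pairs with other leucine zipper factors, had 260.3 and 220.8 normalized counts in scramble and 43.3 and 115.3 in Top1 KD libraries, a log2 fold change of -1.75 (SE 0.41, limma adjusted p = 0.0104). The MAFK row shares sequence positions with a row on the other strand. MAFG, a relative of MAFK, fell by 0.69 on the log2 scale (limma adjusted p = 0.0331). MAFF, the third of these small Maf genes, had a log2 fold change of -2.01 that did not pass the test (limma adjusted p = 0.0588). ATF4, the main factor of the integrated stress response and an activator of ATF3, had 4621 and 4285 normalized counts in scramble and 2676 and 3095 in Top1 KD libraries and fell by 0.63 on the log2 scale (SE 0.11, limma adjusted p = 0.00128). ATF7, a relative of ATF2, rose from 341.1 to 569.1 normalized counts on average (log2 fold change 0.72, SE 0.20, limma adjusted p = 0.0247). ATF2, the most abundant gene of the list without a call, had a log2 fold change of 0.02. The calls of MAFK, MAFG and ATF7 were each lost without scramble replicate 1, scramble replicate 2 or Top1 KD replicate 1 (limma adjusted p = 0.0815 to 0.267), and that of ATF4 without scramble replicate 1 (-0.57, limma adjusted p = 0.0585) or Top1 KD replicate 1 (-0.52, below 1.5-fold). FOSL1, the fourth Fos gene, did not exceed 8.54 normalized counts in any library and was not tested.

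Among 22 tested genes of the list of other immediate early genes, 2 fell (9.09%) and 0 rose, beside 4.26% and 3.88% of all tested genes. Both encode inhibitors of helix-loop-helix factors. ID1 had 529.2 and 453.1 normalized counts in scramble and 163.4 and 109.5 in Top1 KD libraries (log2 fold change -1.86, SE 0.26, limma adjusted p = 0.000348). ID3 had 2790 and 2097 in scramble and 1275 and 1334 in Top1 KD libraries (log2 fold change -0.89, SE 0.14, limma adjusted p = 0.00065). The calls of ID1 and ID3 were kept with any 1 library left out. The other 20 were not called, among them MCL1, a survival factor and the most abundant, with a log2 fold change of 0.24. The relatives of EGR1 were scarce or at 0. EGR2 had 0 and 0 normalized counts in scramble and 20.6 and 7.75 in Top1 KD libraries, EGR3 had 11.7 and 0.88 against 0 and 0, and EGR4 had 0 in every library. None of the EGR relatives passed the filter.

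Feedback inhibitors of MAP kinase signalling, the group to which DUSP1 belongs, had 3 of 8 tested genes called lower (4.26% of all tested genes) and 0 higher (3.88%). DUSP4, a nuclear MAP kinase phosphatase, had 176.1 and 267.5 normalized counts in scramble and 27.1 and 76.6 in Top1 KD libraries (log2 fold change -2.22, SE 0.47, limma adjusted p = 0.00528). SPRY2, a Sprouty inhibitor of receptor signalling, had 368.1 and 386.2 in scramble and 182.9 and 217.1 in Top1 KD libraries (log2 fold change -0.92, SE 0.23, limma adjusted p = 0.0156). SPRED1, a related inhibitor of Ras signalling, fell by 0.62 on the log2 scale (limma adjusted p = 0.0272). DUSP6, a cytoplasmic MAP kinase phosphatase, had 17.1 and 22.9 in scramble and 2.16 and 0 in Top1 KD libraries and did not pass the test (limma adjusted p = 0.141). DUSP16, the most abundant without a call, had a log2 fold change of -0.12. SPRY4, which was not tested, had 42.7 and 7.92 in scramble and 0 in both Top1 KD libraries. The calls of DUSP4, SPRY2 and SPRED1 were each lost without scramble replicate 1, scramble replicate 2 or Top1 KD replicate 1, where the limma adjusted p ran from 0.0528 to 0.251.

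The kinases and factors upstream of FOS included 0 of 19 called lower and 2 called higher, with all-gene shares of 4.26% and 3.88%, so that the 0 is near the background. MAPK8, which encodes the JNK1 kinase that phosphorylates JUN, had 1137 and 1423 normalized counts in scramble and 2222 and 1985 in Top1 KD libraries (log2 fold change 0.72, SE 0.13, limma adjusted p = 0.00226). MRTFA, an actin-regulated partner of the serum response factor, rose by 0.59 on the log2 scale (SE 0.16, limma adjusted p = 0.0201). The serum response factor gene SRF had a log2 fold change of 0.21 (SE 0.20, limma adjusted p = 0.526). Of the MYC network, 1 of 5 tested genes rose and 0 fell (3.88% and 4.26% of all tested genes). MXD1, a MAX partner that opposes MYC, had 275.3 and 167.2 in scramble and 429.7 and 424.6 in Top1 KD libraries (log2 fold change 0.99, SE 0.25, limma adjusted p = 0.0159). MGA, the most abundant without a call, had a log2 fold change of 0.08. The MAPK8 call was lost without scramble replicate 1 (limma adjusted p = 0.0919). The MRTFA call was lost without scramble replicate 1, scramble replicate 2 or Top1 KD replicate 1 (limma adjusted p = 0.0957 to 0.245), and the MXD1 call without scramble replicate 2, Top1 KD replicate 1 or Top1 KD replicate 2 (limma adjusted p = 0.0758 to 0.243).

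**Figure D4:**
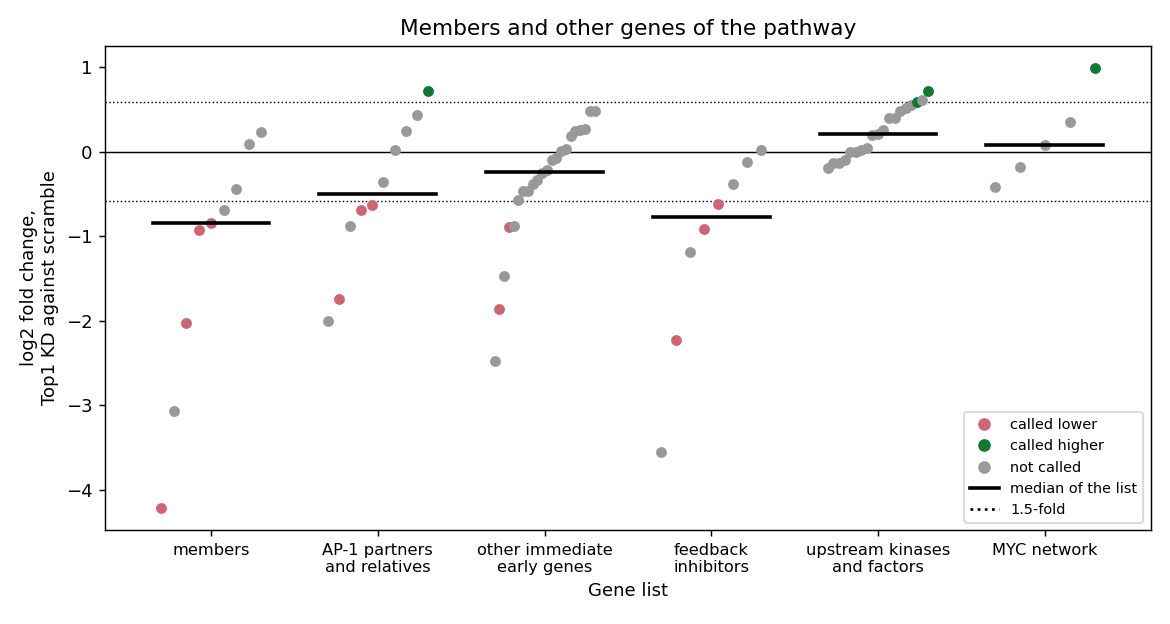
Log2 fold change between Top1 KD and scramble (vertical axis) of each tested gene in the members and the 5 lists (horizontal axis), sorted within a list, with genes called lower in red, called higher in green and list medians as bars. The medians are -0.84 for the members, -0.49 for AP-1 partners, -0.24 for other immediate early genes, -0.77 for feedback inhibitors, 0.21 for upstream kinases and factors and 0.08 for the MYC network.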

How the data were processed

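Per the labels and the study's methods, single-end total RNA-seq reads were cleaned with fastq-mcf and mapped to hg19 with TopHat2 2.0.5, and uniquely mapped reads were kept; HTSeq is named among the tools. The authors deposited a signal per library, the gene count divided by a DESeq2 size factor, with their own DESeq2 fold changes, p-values and calls, which were not used. Reads were recovered by rounding (99.995% of values in each of the 4 libraries whole within 0.05 reads, 14681774 to 18366226 reads). Per-library columns without a sample numbered 0. The DRIP-seq, DRIPc-seq and ChIP-seq samples were not analysed here.

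Groups were compared with limma 3.58.1 (R 4.3.3), with a mean-variance trend, on log2(normalized count + 1), for the 13086 of 19333 genes with at least 10 in at least 2 libraries. edgeR 4.0.16 and DESeq2 1.42.0 on the recovered reads, library-total scaling, no filter, pseudocounts of 0.1 and 5, a replicate block and leaving out each library were alternatives. The method was also run on simulated data, and the outcome is not reported here. With 2 libraries a group, the smallest two-sided p of an exact permutation test is 0.333.

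Members and lists were chosen with earlier results of these data known. List genes were matched to the row on their strand that most overlapped a hand-written hg19 window, and kept where the RefSeq gene (GRCh38.p14) of that symbol lay on the same chromosome with a span within 2-fold. The strand could be checked for 61 of 77. Genes named are the members, TOP1, the cell type markers, list genes that were called, the most abundant uncalled gene of each list (1 of these is not reported here), and 2 of the 3 genes most like FOS. MAFF, SRF, DUSP6, SPRY4, FOSL1 and the EGR relatives were added after their values were seen.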

Additional observations from a re-analysis of the deposited data

How the results depend on the processing

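The falls of JUNB, ATF3 and DUSP1 kept their direction in 33 of 33 alternative values. This was largely fixed beforehand, since their groups did not overlap and a fit without 1 library could not reverse them. The other alternatives refit the same 4 libraries, and there the calls were kept. Calls were lost only in fits that left out 1 library, in which 1 group holds a lone library that is assumed to vary like the other group's. With each library left out in turn, the members called lower numbered 1 to 3, against 4. The pathway genes called lower numbered 2 to 10, against 8, and those called higher 1 to 4, against 4. Over all genes such fits called from 316 to 1329, against 1066. With 1 library left out, the log2 fold change of FOSB ran from -1.66 to 0.28 (without scramble replicate 1), that of FOSL2 from -0.21 (without Top1 KD replicate 2; -0.15 without scramble replicate 1) to 0.38 and that of JUND from -0.18 (without scramble replicate 2) to 0.65, and the cause was not tested. Replicate numbers were not used as pairs in the reported fit. The deviations of same-numbered libraries correlated at 0.04 across 10308 genes, which cannot show whether those libraries were prepared together. With the replicate block, 4 members and 8 pathway genes were called lower, and JUNB kept its log2 fold change of -2.03 (limma adjusted p = 0.0293). Scaling by library totals moved the all-gene median log2 fold change by 0.02. The 12 called list genes kept their direction in 132 of 132 values. Their groups did not overlap either, so that a fit without 1 library could not reverse them. Calls of these genes were lost only with 1 library left out. The alternatives for these genes and for TOP1 were chosen after seeing the data. Mean levels under 100 normalized counts limit EGR1, FOSB, FOSL2 and JUNB.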
